A study of Mus musculus with 20 samples.

Results

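The transcripts described here are those of fibroblast growth factor (FGF) receptors and ligands in the mouse fibroblast line 3T3-L1, whose cells are preadipocytes and turn into fat cells in culture. They were taken by gene name from a list of 8 genes, the receptors Fgfr1, Fgfr2 and Fgfr3 and the ligands Fgf1, Fgf2, Fgf7, Fgf10 and Fgf21. Of these, 7 were found among the 33581 genes of the tables, and Fgfr1 was not analysed here. A filter on low values (a mean normalised count of at least 10 on at least 1 day) kept 16497 genes, among them 6 of the 7; Fgf21 did not pass. The cells carried a lentiviral hairpin, either scrambled or directed against Tcf7l2, a transcription factor that binds DNA with beta-catenin at the end of the canonical Wnt pathway. RNA was sequenced before differentiation (day 0) and on days 2, 4, 6 and 8 of it, with 2 libraries per hairpin and day, which makes 20 libraries in 10 groups. Both arms were infected at passage 2 and puromycin-selected as mixed populations, no thiazolidinedione was routinely added, and the samples name 1 hairpin per arm. The labels do not tell if the 2 libraries of one group stem from separate cultures; p-values therefore cover only the spread between these libraries, which may be technical.

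FGFs are secreted proteins that bind receptor tyrosine kinases at the cell surface together with heparan sulphate, and endocrine members such as FGF21 need a Klotho co-receptor in its place. Bound receptors phosphorylate the adaptor FRS2, which recruits GRB2 and SOS and switches on Ras and the MAP kinase cascade; Sprouty proteins and the phosphatase DUSP6 feed back on it. FGF7 and FGF10 are mesenchymal ligands that act mainly on an epithelial splice form of FGFR2, FGF1 can bind all of the receptors, and FGF10 and FGF1 are both known from studies of fat tissue. Gene-level counts do not tell the splice forms of a receptor apart.

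The stretches before the transcript starts of 3 of these genes are shown, 2 receptors whose transcripts were lower in the Tcf7l2 hairpin libraries on every day and the ligand Fgf7, which was higher in every same-numbered pair of libraries. They come from RefSeq (GRCm38.p6), run 5′ to 3′ on the gene's strand and end at the base before the RefSeq start, or, for Fgfr3, before the earlier start in GENCODE. Capitals mark a match to a short word bound by Tcf/Lef factors. The words searched on both strands differ in their last 2 letters: CTTTGAA is in 4.46% of 32851 windows of 250 bases before gene starts, CTTTGAT is in 3.21%, CTTTGTA is in 3.20% and CTTTGTT is in 5.03%, and 14.84% hold at least 1 of them.
Fgfr2, chr7:130266809-130267058, minus strand: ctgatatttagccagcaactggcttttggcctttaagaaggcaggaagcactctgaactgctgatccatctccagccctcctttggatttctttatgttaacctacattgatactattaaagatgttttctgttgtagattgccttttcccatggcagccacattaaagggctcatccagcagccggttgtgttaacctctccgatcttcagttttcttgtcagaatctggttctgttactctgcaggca
Fgfr3, chr5:33721474-33721673, plus strand: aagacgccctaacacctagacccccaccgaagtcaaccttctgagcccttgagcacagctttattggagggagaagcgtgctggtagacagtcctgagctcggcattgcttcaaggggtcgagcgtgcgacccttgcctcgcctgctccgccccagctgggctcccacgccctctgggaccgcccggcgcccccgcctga
Fgf7, chr2:126034408-126034657, plus strand: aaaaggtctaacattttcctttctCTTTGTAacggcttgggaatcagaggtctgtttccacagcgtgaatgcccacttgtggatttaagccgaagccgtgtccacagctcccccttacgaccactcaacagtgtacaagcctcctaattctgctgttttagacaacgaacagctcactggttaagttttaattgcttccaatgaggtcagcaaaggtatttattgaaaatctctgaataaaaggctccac
Fgf7 held 1 match, CTTTGTA, whose first base lies at -226 relative to the start. The stretches of Fgfr2 and Fgfr3 held 0 matches, which says only that these letters are not in them. Windows of 250 bases before the starts of Fgf2, Fgf10 and Fgf21 and a later start of Fgfr3, not shown, also held 0. As 14.84% of all windows hold a match, nothing is read from the 1 match in Fgf7. The Fgfr3 stretch has 65% G and C and 14 CpG pairs in 200 bases, and the Fgfr2 stretch has 44% G and C and 2 CpG pairs in 250 bases. The RefSeq start of Fgfr2 lies 545 bases from the nearest GENCODE start, so its window may not be the one used in these cells.

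Libraries held 20153362 to 33973608 reads, and levels are given as RPM, the reads of a gene after scaling all recovered reads of a library to a total of 1000000. Tcf7l2, the targeted gene, was at 38.5 to 59.0 RPM in the 10 scrambled libraries and at 12.2 to 23.4 RPM in the 10 Tcf7l2 hairpin libraries, with no overlap on any day. The summed level of 9 adipocyte markers went from 540 to 619 RPM on day 0 to 7075 to 30976 RPM on day 8 in scrambled libraries. It reached 2752 to 4434 RPM on day 8 in Tcf7l2 hairpin libraries. Within the scrambled arm, the libraries numbered 2 had the higher sum on days 4, 6 and 8 (13547 against 4209, 27386 against 12222, and 30976 against 7075 RPM). Fibroblast markers (9 genes) were high in all libraries (11614 to 44867 RPM summed), and epithelial markers were near 0 (at most 2.94 RPM for 7 genes). In bulk RNA, fewer cells of a type and less RNA per cell cannot be told apart.

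Fgfr2 was the more abundant of the 2 receptors, and its transcript was lower with the Tcf7l2 hairpin in all 10 same-numbered pairs of libraries. FGFR2 is the receptor tyrosine kinase for FGF7 and FGF10 in its epithelial form and for FGF2 in its mesenchymal form. The gene (ENSMUSG00000030849.10) lies on the minus strand of chromosome 7, from 130162451 to 133123350 in GRCm38, where the annotation includes a transcript that reads through to Ctbp2 and shares 314 exon bases with it. In the 2 scrambled libraries Fgfr2 was at 84.1 and 105 RPM on day 0, 336 and 412 on day 2, 205 and 172 on day 4, 129 and 90.4 on day 6, and 106 and 115 on day 8. With the Tcf7l2 hairpin it was at 34.5 and 38.4 RPM on day 0, 153 and 182 on day 2, 97.2 and 103 on day 4, 54.7 and 59.4 on day 6, and 51.4 and 73.6 on day 8. Both arms thus peaked on day 2, and the libraries of the arms did not overlap on any day. The group mean with the Tcf7l2 hairpin was 38.5% of the scrambled mean on day 0, 44.8% on day 2, 53.0% on day 4, 51.9% on day 6 and 56.5% on day 8. Scrambled day 2 stood alone at the top of the 10 groups and the Tcf7l2 hairpin on day 0 alone at the bottom, while neighbours such as scrambled day 4 and Tcf7l2 hairpin day 2, or scrambled days 8 and 6, overlapped.

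Fgfr2 was chosen by its measured difference between hairpins on days 0 and 2, in earlier results of these data, so those 2 days are a description here and carry no test. The libraries of days 4, 6 and 8 did not enter that choice, though they come from the same selected cell populations. The fit takes its spread from all 20 libraries, so the SE given next rests in part on those of days 0 and 2. Averaged over those 3 days, Fgfr2 was lower with the Tcf7l2 hairpin by a log2 difference of -0.90 (SE 0.113, limma, adjusted p = 0.000148), in 6 of 6 pairs. Of all genes tested, 27.9% were called in this comparison (14.8% lower and 13.1% higher). The log2 values are the authors' variance-stabilised ones, which understate the differences of low genes. The call held in each of the 20 fits that left out 1 library (largest adjusted p 0.000897).

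Fgfr3 followed with a larger relative difference at a lower level. FGFR3 is a related receptor tyrosine kinase, best known for restraining growth of cartilage. Its gene (ENSMUSG00000054252.9) lies on the plus strand of chromosome 5, from 33721674 to 33737068, and shares 998 exon bases with the opposite-strand gene G630022F23Rik; the library kit does not mark strand, so their reads cannot be told apart. In scrambled libraries Fgfr3 was at 10.2 and 13.7 RPM on day 0, 31.6 and 37.5 on day 2, 32.9 and 21.1 on day 4, 31.0 and 10.3 on day 6, and 18.2 and 14.9 on day 8. With the Tcf7l2 hairpin it was at 2.87 and 2.12 RPM on day 0, 7.22 and 6.29 on day 2, 7.87 and 7.98 on day 4, 6.20 and 5.24 on day 6, and 5.03 and 7.55 on day 8. All 10 Tcf7l2 hairpin libraries were below all 10 scrambled libraries, whatever the day. How many of all genes tested separate in this way was not counted. The Tcf7l2 hairpin mean was 20.8%, 19.6%, 29.4%, 27.7% and 37.9% of the scrambled mean on days 0, 2, 4, 6 and 8. Averaged over days 4, 6 and 8, the log2 difference was -1.32 (SE 0.180, limma, adjusted p = 0.000274), with 6 of 6 pairs lower, and the call held in each of the 20 fits without 1 library (largest adjusted p 0.00141).

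On all 5 days the libraries of the arms did not overlap, with the Tcf7l2 hairpin lower, for both receptors and for 2.35% of all genes tested (387 of 16497). Because days 0 and 2 entered the choice of Fgfr2, nothing is read from its place in that count. Single days had larger adjusted p-values than the mean of 3, whose fit takes the days as independent. Same-numbered libraries deviated together across days 4, 6 and 8. Their correlations were 0.766 to 0.848 in scrambled libraries and 0.463 to 0.703 with the Tcf7l2 hairpin. All p-values of this mean may therefore be too small, and its 6 pairs are not independent. For no pair count given here was the share of all genes with the same count determined. The limma adjusted p for Fgfr2 was 0.0369, 0.0198 and 0.0226 on days 4, 6 and 8, and for Fgfr3 0.0388, 0.0306 and 0.0403, where 1.61%, 4.12% and 5.75% of all genes were called. With each day's table fitted alone these rose to 0.117 to 0.448, and each single-day call was lost in 2 to 16 of the 20 fits without 1 library. In the authors' deposited table the adjusted p of Fgfr2 was 0.00224, 0.00884 and 0.123 on days 4, 6 and 8, and that of Fgfr3 was 2.73e-06, 0.00436 and 0.00484.

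**Figure D1:**
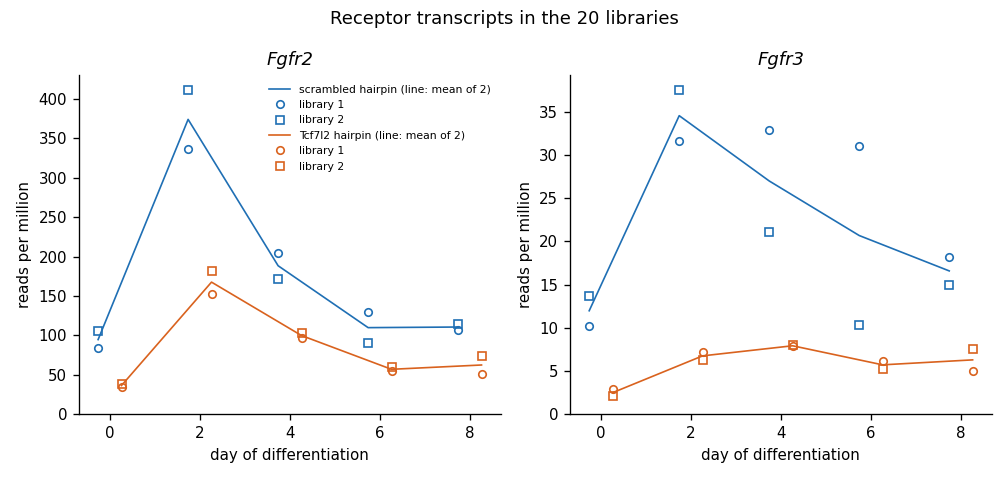
RPM of Fgfr2 (left) and Fgfr3 (right) in each library by day of differentiation, with the scrambled hairpin in blue and the Tcf7l2 hairpin in orange; circles and squares are libraries 1 and 2 and lines join means of 2. Fgfr2 peaks on day 2 in both arms, at 336 and 412 against 153 and 182 RPM, and for both receptors every Tcf7l2 hairpin library lies below the scrambled libraries of its day.

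The receptors did not keep a fixed ratio. Per kilobase of annotated exons (10328 bases for Fgfr2 and 7158 for Fgfr3), Fgfr2 was 5.70 and 5.32 times the level of Fgfr3 in the scrambled libraries of day 0, and 8.35 and 12.5 times in those with the Tcf7l2 hairpin. On day 2 it was 7.38 and 7.61 times against 14.7 and 20.1 times, and on day 8 4.04 and 5.34 times against 7.08 and 6.75 times. The ratio was thus higher with the Tcf7l2 hairpin, without overlap, on days 0, 2 and 8 as well as on day 4 (4.32 and 5.66 against 8.56 and 8.91) and day 6 (2.89 and 6.08 against 6.12 and 7.86). The arms were barely apart on day 6 (6.08 against 6.12), and the Fgfr2 values of days 0 and 2 entered its choice. How many other gene pairs separate in this way was not counted. The long read-through transcript of Fgfr2 lengthens its exon total, so the size of this ratio depends on the annotation.

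Among the ligands, Fgf7 and Fgf10 were abundant, Fgf2 was low, Fgf1 appeared late and Fgf21 was barely detected. Per kilobase of exons in scrambled libraries of day 0, the level of Fgf7 was 29.2 ± 8.67 RPM (SD, n = 2), above Fgf10 at 10.7 ± 0.795, Fgfr2 at 9.17 ± 1.46, Fgfr3 at 1.67 ± 0.346 and Fgf2 at 0.318 ± 0.0365. On day 2 the order had changed, with Fgfr2 at 36.2 ± 5.16, Fgf10 at 19.9 ± 4.51, Fgf7 at 9.73 ± 1.46, Fgfr3 at 4.83 ± 0.585 and Fgf2 at 0.193 ± 0.0402 RPM per kilobase. The libraries of Fgf10 and Fgfr2 overlapped on day 0 on this scale and did not on day 2.

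Fgf7, also called keratinocyte growth factor, was lower on day 2 than on day 0 and was higher with the Tcf7l2 hairpin. The gene spans 126034658 to 126091185 on the plus strand of chromosome 2. In scrambled libraries Fgf7 was at 115 and 75.0 RPM on day 0, 35.0 and 28.3 on day 2, 35.9 and 15.4 on day 4, 59.3 and 23.9 on day 6, and 80.1 and 28.2 on day 8. With the Tcf7l2 hairpin it was at 147 and 87.4 RPM on day 0, 62.1 and 63.7 on day 2, 49.4 and 32.3 on day 4, 94.0 and 53.4 on day 6, and 99.3 and 61.4 on day 8. Libraries numbered 1 were above those numbered 2 in every group except the Tcf7l2 hairpin on day 2, so the arms overlapped on every day but day 2 (when 20.7% of all genes were higher without overlap), although the Tcf7l2 hairpin was the higher in 10 of 10 same-numbered pairs. The share of all genes with 10 of 10 pairs in the same direction was not counted. Averaged over days 4, 6 and 8 the log2 difference was 0.71 (SE 0.284), which did not pass in the unpaired limma fit (adjusted p = 0.0790). It did pass in limma with the replicate block, which compares libraries of the same number within a day (adjusted p = 0.00181). In the authors' deposited DESeq2 table the adjusted p of Fgf7 was 1.75e-06 on day 2. There it was 0.765, 0.388 and 0.856 on days 4, 6 and 8. The unpaired limma fit did not call Fgf7 on day 2. The scrambled libraries numbered 2, lowest in Fgf7 on days 4, 6 and 8, were also those with the highest adipocyte marker sum; the part of the latter in this difference was not tested.

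Fgf10, a ligand made by mesenchymal cells and by preadipocytes, moved the other way on the later days. Its gene spans 118669791 to 118792115 on the plus strand of chromosome 13, and 123 of its exon bases are shared with the antisense gene Gm16263. In scrambled libraries Fgf10 was at 46.8 and 52.0 RPM on day 0, 106 and 77.0 on day 2, 103 and 82.4 on day 4, 105 and 55.0 on day 6, and 85.9 and 63.2 on day 8. With the Tcf7l2 hairpin it was at 53.4 and 35.4 RPM on day 0, 127 and 76.9 on day 2, 89.2 and 68.6 on day 4, 65.2 and 50.9 on day 6, and 58.1 and 39.0 on day 8. The arms overlapped on days 0 to 6 and did not on day 8, where the Tcf7l2 hairpin mean was 65.1% of the scrambled mean and 21.4% of all genes were lower without overlap. Over days 4, 6 and 8 the log2 difference was -0.43 (SE 0.174), with 6 of 6 pairs lower, an adjusted p of 0.0790 in the unpaired limma fit and one of 0.0122 with the replicate block. Per kilobase, Fgf10 was 2.15 and 1.92 times the level of Fgf7 in scrambled libraries of day 2 against 1.45 and 0.853 times with the Tcf7l2 hairpin, and on day 8 it was 0.757 and 1.58 times against 0.413 and 0.448 times. On days 4 and 6 too this ratio was lower with the Tcf7l2 hairpin without overlap. On day 0 the arms were barely apart, at 0.288 and 0.489 times against 0.257 and 0.286 times. How many other gene pairs separate in this way was not counted.

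Fgf2, basic FGF, is known as a mitogen of preadipocytes. The gene spans 37348346 to 37410108 on the plus strand of chromosome 3, and 640 of its exon bases (9.44%) are shared with the opposite-strand gene Nudt6, whose reads cannot be told apart there. On day 0 it was at 1.98 and 2.33 RPM in scrambled libraries and at 4.42 and 3.29 RPM with the Tcf7l2 hairpin, and on day 2 at 1.504 and 1.12 against 3.04 and 1.99 RPM. The Tcf7l2 hairpin libraries were thus the higher on these 2 days without overlap, as were 18.9% and 20.7% of all genes tested. From day 4 on the arms overlapped, reaching 4.88 and 5.16 RPM against 5.23 and 3.74 RPM on day 8. The log2 difference over days 4, 6 and 8 was 0.04 (limma, adjusted p = 0.790).

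Fgf1, acidic FGF, was almost undetected before day 4 and was highest in late scrambled libraries. The recovered reads in the 2 scrambled libraries were 0 and 2 on day 0, 0 and 1 on day 2, 5 and 13 on day 4, 22 and 99 on day 6, and 32 and 151 on day 8. With the Tcf7l2 hairpin they were 2 and 0 on day 0, 0 and 3 on day 2, 1 and 1 on day 4, 13 and 33 on day 6, and 6 and 21 on day 8. On day 8 this was 1.24 and 5.03 RPM in scrambled libraries against 0.288 and 0.634 RPM, without overlap, as for 21.4% of all genes in this direction. Day 4 did not overlap either (0.172 and 0.410 against 0.0410 and 0.0309 RPM, from the few reads above), as for 21.7% of all genes, while day 6 did (0.946 and 3.63 against 0.610 and 0.976 RPM). The higher value of each late scrambled pair was again the library numbered 2, the one with the higher adipocyte marker sum; whether that sum accounts for the difference was not tested. Averaged over days 4, 6 and 8 the log2 difference was -0.71 (SE 0.202, limma, adjusted p = 0.0209), with 6 of 6 pairs lower. That call ended without scrambled library 2 of day 4 (adjusted p 0.0573), scrambled library 2 of day 6 (0.0644), Tcf7l2 hairpin library 1 of day 6 (0.0573) or Tcf7l2 hairpin library 1 of day 8 (0.0583), without both scrambled libraries of day 8 (0.0792), and without the 6 late libraries (days 4, 6 and 8) numbered 2 (0.0752). Over the 6 genes of the list that were tested, 3 were lower and 0 higher in this comparison, where 14.8% of all genes were lower and 13.1% higher. The 3 include Fgfr2, which was noted for being lower on earlier days, and 2 were lower without both scrambled libraries of day 8 or without the libraries numbered 2. Fgf1 passed the filter only through days 6 and 8, so its increase over time is given as reads and carries no test.

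Fgf21, an endocrine ligand that acts on fat cells through FGFR1 and the co-receptor beta-Klotho, had 0 to 8 reads in any library and was not tested. Of the 22 Fgf ligand genes with a row, 19 had a read in some library and 6 passed the filter. A mean of at least 1 RPM over the 20 libraries was found for 4, namely Fgf10 (72.0), Fgf7 (62.3), Fgf2 (3.08) and Fgf14 (1.40). Fgf14, an intracellular homologue that does not bind the receptors, was higher with the Tcf7l2 hairpin over days 4, 6 and 8 (log2 difference 0.68, SE 0.159, limma, adjusted p = 0.00855), a call that ended without both scrambled libraries of day 8 (adjusted p 0.0552) and without the 6 late libraries numbered 2 (0.357).

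**Figure D2:**
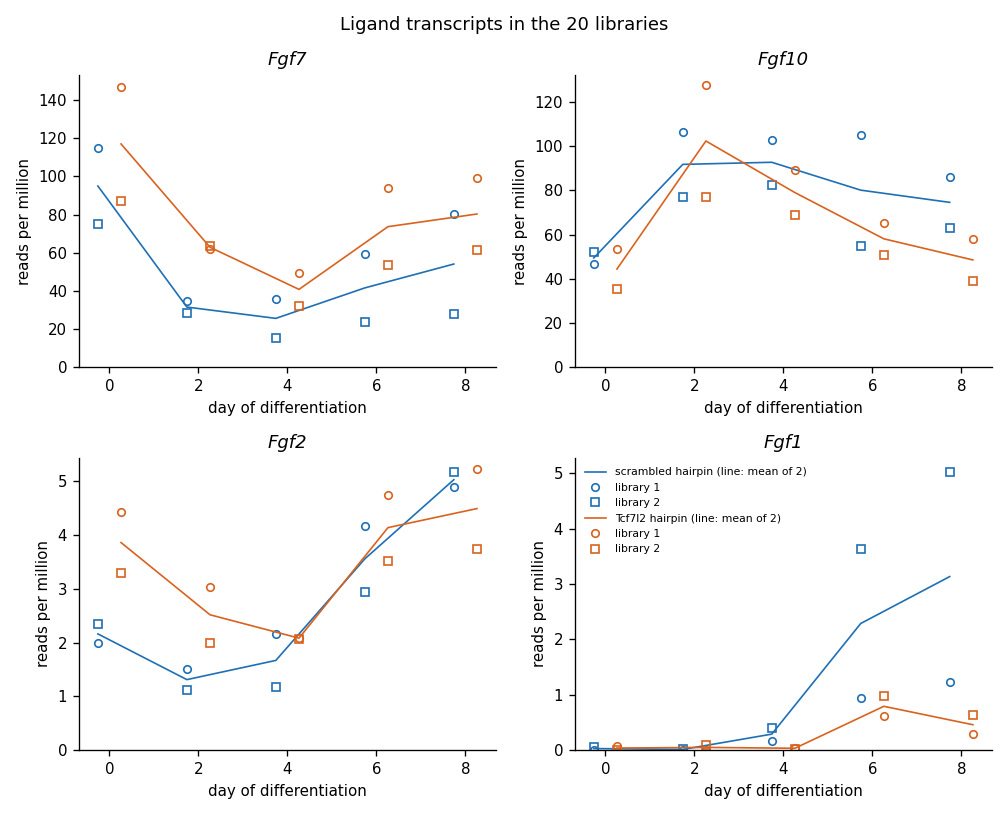
RPM of Fgf7, Fgf10, Fgf2 and Fgf1 in each library by day of differentiation, in blue for the scrambled and orange for the Tcf7l2 hairpin, with circles and squares for libraries 1 and 2 and lines through means of 2. Fgf7 is higher with the Tcf7l2 hairpin in each same-numbered pair, and Fgf1 separates on day 8, at 1.24 and 5.03 RPM against 0.288 and 0.634 RPM.

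The time course was compared within each arm on recovered reads, first from day 0 to day 2 and then from day 2 to the mean of days 4, 6 and 8. These fits too take the days as independent, while same-numbered libraries of days 4, 6 and 8 deviated together. Without a replicate block, p-values of the step after day 2 may therefore be too small. On day 2 in scrambled cells the mean RPM of Fgfr2 was 3.95 times that of day 0 (log2 difference 1.98), given without a test because the libraries of both days entered the difference for which Fgfr2 was noted. Fgfr3 rose 2.88-fold (log2 difference 1.51, SE 0.385, limma voom, adjusted p = 0.0121). Of all genes, 24.5% were called in this step, 9.17% higher and 15.3% lower. The Fgfr3 call ended without scrambled library 1 or 2 of day 0 (adjusted p 0.0712 and 0.0503) or library 2 of day 2 (0.0881). Fgf7 (-1.58, SE 0.560, adjusted p = 0.0560), Fgf10 (0.88, adjusted p = 0.0790) and Fgf2 (-0.76, adjusted p = 0.159) did not pass with all libraries. Fgf7 did pass without both scrambled libraries of day 8 (adjusted p 0.0288), and Fgf10 did under median-of-ratios scaling (0.0432). With a replicate block by library number across days, both passed (adjusted p 0.00134 for Fgf7 and 0.00313 for Fgf10). The labels do not link the numbers across days, and deviations of same-numbered scrambled libraries of days 0 and 2 had a correlation of 0.271.

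The same step with the Tcf7l2 hairpin gave a mean RPM of Fgfr2 on day 2 that was 4.60 times that of day 0 (log2 difference 2.19), again without a test. Here 17.2% of all genes were called, 5.06% higher and 12.2% lower, and the median over all genes was -0.10. Fgf10 rose by 1.19 (SE 0.344, limma voom, adjusted p = 0.0306), a call that ended without Tcf7l2 hairpin library 2 of day 0 (0.207) or library 1 of day 2 (0.244). Fgfr3 differed by 1.45 (SE 0.566, adjusted p = 0.101, and 0.0347 with limma on log2(RPM + 0.5)) and Fgf7 by -0.85 (adjusted p = 0.339, and 0.0457 with the replicate block across days).

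After day 2 Fgfr2 fell in both arms. In scrambled cells its log2 difference was -1.4999 (SE 0.185), and with the Tcf7l2 hairpin -1.24 (SE 0.172). Both values rest in part on the day 2 libraries, which entered the difference for which Fgfr2 was noted. They are therefore given without a test. On day 8 the level was 1.17 times that of day 0 in scrambled cells and 1.71 times with the Tcf7l2 hairpin. Of all genes, 26.2% were called in this step in scrambled cells and 18.0% with the Tcf7l2 hairpin, where the replicate block across days called 4641 genes in place of 2965.

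Fgf2 rose after day 2 in scrambled cells (log2 difference 1.23, SE 0.310, limma voom, adjusted p = 0.0113), a call that ended without scrambled library 2 of day 2 (adjusted p 0.171) or without both scrambled libraries of day 8 (0.0839). Fgfr3 differed by -0.81 (SE 0.283, adjusted p = 0.0497), which 16 of the 20 fits without 1 library did not keep (largest adjusted p 0.301, without scrambled library 2 of day 2). With the Tcf7l2 hairpin neither passed, with Fgf2 at 0.43 (adjusted p = 0.311) and Fgfr3 at -0.04 (adjusted p = 0.963). Fgf7 and Fgf10 passed in neither arm, and the Fgf10 difference with the Tcf7l2 hairpin was -0.73 (adjusted p = 0.0957, 0.0464 under median-of-ratios scaling and 0.00383 with the replicate block across days).

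The arms were also compared directly in each step, as the difference between their time courses. In limma voom 0 of 16497 genes passed for either step, against 418 and 851 genes at an unadjusted p under 0.05; limma on log2(RPM + 0.5) called 3 genes in each. For Fgfr3 the difference between arms was -0.06 (SE 0.684, adjusted p = 1.00) to day 2 and 0.78 (SE 0.487, adjusted p = 0.924) after it. For Fgf2 after day 2 it was -0.81 (SE 0.409, adjusted p = 0.924). A different time course of the arms was therefore not shown for these genes, and the wide errors do not show that they were alike. For Fgfr2 the differences were 0.21 (SE 0.300) and 0.26 (SE 0.252), given without a test.

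**Figure D3:**
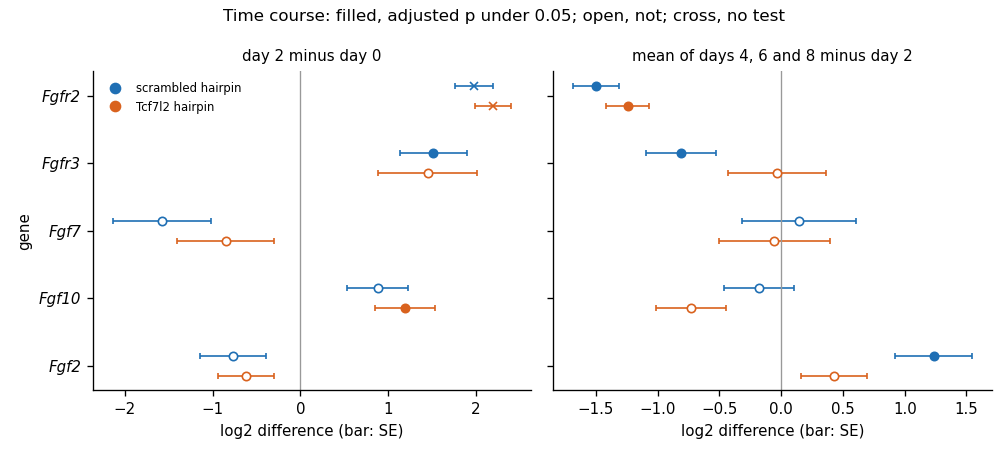
Log2 differences with their SE for 5 genes within each arm (blue scrambled, orange Tcf7l2 hairpin), from day 0 to day 2 on the left and from day 2 to the mean of days 4, 6 and 8 on the right; filled points have an adjusted p under 0.05, open points do not, and crosses mark the Fgfr2 values given without a test. Fgfr2 lies near 2 in both arms on the left (1.98 and 2.19) and below 0 in both on the right (-1.4999 and -1.24). Its points on the right rest in part on day 2 libraries, so their fill is not read as a test. Fgf1 is left out because of its few reads before day 4.

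Across the 20 libraries the levels of Fgfr2 and Fgfr3 varied together (Pearson r 0.836 of log2(RPM + 1)), and Fgfr2 went against Fgf2 (r -0.69) and Fgf7 (r -0.64). These values describe 20 points that share days, hairpins and same-numbered libraries. Of 13825 other tested genes with a median of at least 1 RPM (13826 for Fgf1), the 3 most like Fgfr2 were Peli2 (r 0.957), Gpr155 (0.948) and Ergic1 (0.942). Those most like Fgfr3 were Clmn (0.917), Itsn1 (0.898) and Mtap9 (0.889). For Fgf7 the first 2 were Dennd5a (0.973) and Scnm1 (0.945), for Fgf10 Wdfy2 (0.892), Ppm1l (0.891) and Ccdc27 (0.888), for Fgf2 Aktip (0.872), 1810043H04Rik (0.856) and Cyb5d2 (0.854), and for Fgf1 Chpt1 (0.964), Lrrc39 (0.959) and Rmi1 (0.956).

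Of the other FGF receptor genes, Fgfrl1 passed the filter and Fgfr4 did not (at most 0.137 RPM). Fgfrl1, a receptor-like protein that binds FGFs but has no kinase domain, was lower with the Tcf7l2 hairpin over days 4, 6 and 8 (log2 difference -0.90, SE 0.101, limma, adjusted p = 5.82e-05). Its level on day 8 was 222 and 287 RPM in scrambled libraries against 125 and 127 RPM, and the arms did not overlap on any day, as for 2.35% of all genes.

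Of 20 co-receptor and heparan sulphate genes tested, 5 were higher and 3 lower over days 4, 6 and 8, where 13.1% of all genes were higher and 14.8% lower, with a median log2 difference of 0.03 against 1.04e-05 over all genes. Hs6st2, which adds sulphate to heparan chains, was higher by 1.54 (SE 0.177, limma, adjusted p = 7.29e-05), at 36.9 and 49.9 RPM on day 8 against 9.96 and 20.5 RPM. Hs6st1, which has the same activity, was lower by -0.54 (SE 0.128, adjusted p = 0.00904). The glypicans Gpc4 and Gpc6, cell-surface heparan sulphate carriers, were higher by 0.78 (SE 0.127, adjusted p = 0.000965) and 0.84 (SE 0.204, adjusted p = 0.0103). Klb, the beta-Klotho co-receptor of FGF21, was named after its values were seen: it went from 0.125 and 0.149 RPM on day 0 to 7.24 and 130.0 RPM on day 8 in scrambled libraries, and reached 1.92 and 5.50 RPM with the Tcf7l2 hairpin. Its log2 difference of -2.16 (SE 0.614, adjusted p = 0.0206) was not kept without scrambled library 2 of day 4 (0.0661) or 6 (0.0672), Tcf7l2 hairpin library 1 of day 4 (0.0554), 6 (0.0612) or 8 (0.0574), or on recovered reads (0.0599). Without the 6 late libraries numbered 2, the calls of Gpc4 (adjusted p 0.104) and Hs6st1 (0.118) also ended, and 2 genes of the list were higher and 1 lower.

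In the cascade from adaptors to MAP kinases, 2 of 20 genes were higher and 3 lower over days 4, 6 and 8 (median log2 difference -0.03), beside the same 13.1% and 14.8% of all genes. Frs2, the docking protein next to the receptor, was higher by 0.42 (SE 0.0760, limma, adjusted p = 0.00183) and Nras by 0.28 (SE 0.0541, adjusted p = 0.00295). Sos2, an exchange factor for Ras, was lower by -0.46 (SE 0.0817, adjusted p = 0.00176). Without the 6 late libraries numbered 2 the calls of Frs2 (0.0917), Nras (0.120) and Sos2 (0.0502) ended, and in the list 0 genes were higher and 1 lower. Ptpn11, the phosphatase SHP2, was lower by -0.36 (adjusted p = 0.00685), a call that also ended without those libraries (0.296), and is named here after its values were seen.

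Of 8 feedback inhibitors tested, 0 were higher and 2 lower, beside 13.1% and 14.8% of all genes, with a median log2 difference of 0.04. Spry4, a Sprouty inhibitor of receptor tyrosine kinase signalling, was lower by -1.82 (SE 0.243, limma, adjusted p = 0.000238), at 13.7 and 15.04 RPM on day 8 against 37.9 and 107 RPM. Dusp6, the phosphatase of ERK, was lower by -0.95 (SE 0.168, adjusted p = 0.00176), at 8.53 and 9.54 RPM against 18.0 and 20.3 RPM, and its call ended without the 6 late libraries numbered 2 (0.0802). Both calls held in each of the 20 fits without 1 library.

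Of 10 transcriptional targets of the pathway, 2 were higher and 2 lower (median -0.25), beside 13.1% and 14.8% of all genes. Etv4, an ETS factor, was higher by 1.20 (SE 0.194, limma, adjusted p = 0.000948), at 4.17 and 4.86 RPM on day 8 against 0.133 and 1.70 RPM. Dusp4, a nuclear ERK phosphatase, was lower by -1.71 (SE 0.461, adjusted p = 0.0165), a call not kept without scrambled library 2 of day 4 (0.0537) or 6 (0.0538) or Tcf7l2 hairpin library 1 of day 6 (0.0527). Fos differed by -0.55 (adjusted p = 0.0201) and Dusp5 by 0.44 (adjusted p = 0.0225). Each of these last 2 calls was lost in 6 of the 20 fits without 1 library, the largest adjusted p being 0.0656 for Fos without Tcf7l2 hairpin library 1 of day 6, and 0.0715 for Dusp5 without scrambled library 2 of day 6. Without both scrambled libraries of day 8, and likewise without the 6 late libraries numbered 2, 1 target was higher and 1 lower. Over the same days all 9 adipocyte markers were lower (median -1.96), and 5 of 9 fibroblast markers were higher and 0 lower; the part of this in the pathway differences was not tested.

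**Figure D4:**
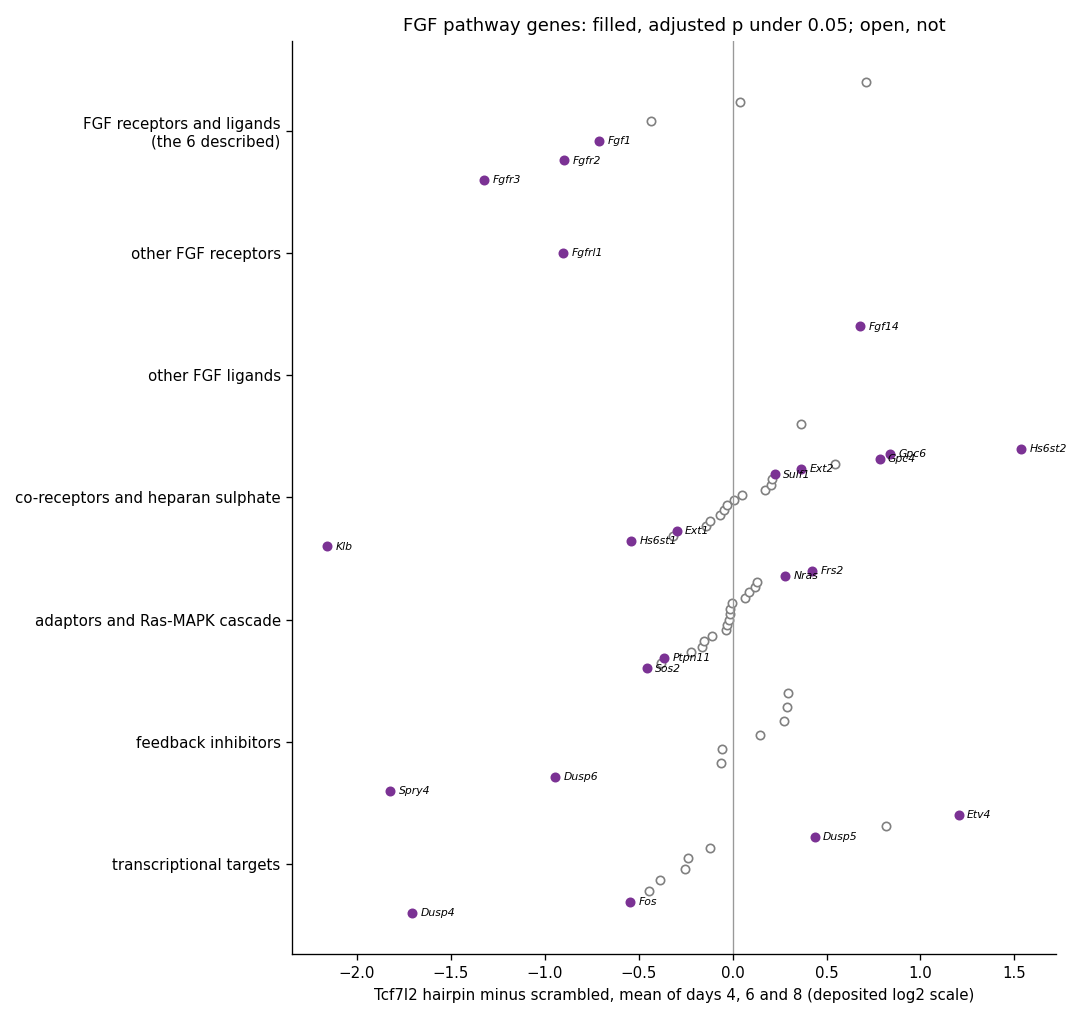
Log2 difference between the Tcf7l2 and the scrambled hairpin, averaged over days 4, 6 and 8, for the tested genes of the FGF pathway lists apart from 1 that is not reported here, on the deposited log2 scale; filled points have an adjusted p under 0.05 over all genes and are named. Fgfr3 (-1.32), Fgfr2 (-0.90) and Fgfrl1 (-0.90) lie to the left, as do the 2 called feedback inhibitors, Spry4 (-1.82) and Dusp6 (-0.95). Co-receptors (with Klb at -2.16), adaptors and targets have called genes on both sides.

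In the scrambled time course from day 0 to day 2, where 9.17% of all genes rose and 15.3% fell, 1 of 20 co-receptor and heparan sulphate genes rose and 6 fell, 0 of 20 cascade genes rose and 3 fell, 1 of 8 feedback inhibitors rose and 3 fell, and 2 of 10 targets rose and 3 fell. Sdc4, a syndecan, rose by 0.88 (SE 0.182, limma voom, adjusted p = 0.00393), while Sdc3 fell by 3.54 (SE 0.5005, adjusted p = 0.000323). The glypican gene Gpc4 fell by 1.18 (SE 0.217, adjusted p = 0.00185). Mapk3, which encodes ERK1, fell by 1.03 (SE 0.135, adjusted p = 0.000188) and Nras by 0.665 (SE 0.109, adjusted p = 0.000864). Il17rd, the membrane inhibitor Sef, fell by 2.66 (SE 0.460, adjusted p = 0.00128), and the inhibitor Spred1 fell by 1.31 (SE 0.191, adjusted p = 0.000398). Myc rose by 3.19 (SE 0.444, adjusted p = 0.000293). After day 2, Sdc4 fell by 1.11 (SE 0.151, adjusted p = 0.000248), Sdc1 fell by 1.047 (SE 0.173, adjusted p = 0.000927) and Gpc4 rose by 1.15 (SE 0.175, adjusted p = 0.000561). These are the genes named by the rule in any comparison whose calls in these 2 steps held in each of the 20 fits without 1 library. Here too the p-values after day 2 may be too small, for the reason given with the time course. Among targets, the calls of Etv4, Etv5 and Fosl1 to day 2 did not hold in each fit. Over the fits Etv4 ranged from -5.16 to -4.39 and Etv5 from -2.16 to -1.999, while Fosl1 ranged from 3.27 to 3.79. Etv4 was as low as 0.0859 RPM in a scrambled library of day 2, so few reads limit the size of its fall. Fgfrl1 rose in both steps, by 0.51 (adjusted p = 0.0244) and 0.50 (adjusted p = 0.0114). The first of these calls ended without any 1 of the 4 scrambled libraries of days 0 and 2 (largest adjusted p 0.160, without library 2 of day 2), and the second without library 1 (0.135) or 2 (0.0589) of day 2.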

How the data were processed

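Gene expression was measured by RNA sequencing in the 20 samples, from TruSeq V2 libraries of total RNA per the labels. The submitters' processing notes name TopHat2 2.0.13, Bowtie2 2.2.3.0, SAMtools, DESeq2 1.10.1 and the build mm9; the read counter and annotation are not given in the sources used here. Each day has a table of its own, with log2 values per library that the authors variance-stabilised, a mean normalised count (signal), a log2 fold change, its standard error, a statistic (score), a p-value and an adjusted p-value, all deposited as such. Tables were normalised separately, so values of different days were compared on recovered reads. A value for 0 reads lay between 5.00 and 6.94 in these tables. Inverting the stabilisation gave reads, whole within 0.02 for 100% of the values up to 100 reads.

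Knockdown differences were fitted with limma 3.58.1 (R 4.3.3, statmod 1.5.0, trend and robust options) on the deposited log2 values, with 10 group means and 10 residual degrees of freedom. Time courses and differences between arms were fitted with limma voom on reads scaled to the total. The 16497 genes whose mean normalised count reached 10 on some day were tested, with Benjamini-Hochberg adjustment over all of them at 0.05. The fits were also run on simulated counts, drawn independently with a spread common to all genes. Those counts had no links between same-numbered libraries or between days. They therefore do not test the fits under the correlations seen in these libraries.

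Same-numbered libraries deviated together within each day (correlations 0.783, 0.702, 0.551, 0.537 and 0.468 on days 0 to 8), so the numbers were taken to pair libraries within a day; this comes from the correlations, since the labels do not say what a number stands for. Gene positions are those of GENCODE in GRCm38, and lengths are of all annotated exons. Promoter sequences are from RefSeq.

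The genes described and the pathway and marker lists were chosen with earlier results of these data known. From each pathway list, up to 4 called genes with the smallest adjusted p were named, and for each gene described the 3 genes with the highest Pearson r; 2 genes that this rule names are not reported here. Over days 4, 6 and 8, with the Tcf7l2 hairpin, 0 of 2 tested epithelial markers were called. Higher were 1 of 2 endothelial markers and 2 of 4 macrophage and leukocyte markers. Of all genes tested, 13.1% were higher and 14.8% lower in this comparison. Other filters, scalings, blocks and omitted libraries were tried. Fgfr1 was not analysed here.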

Additional observations from a re-analysis of the deposited data

How the results depend on the processing

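With all libraries, 37, 44, 266, 679 and 948 genes were called between hairpins on days 0, 2, 4, 6 and 8, and 4596 over days 4, 6 and 8. The replicate block within days gave 132, 128, 512, 2967, 2817 and 7295; it passed Fgf7 and Fgf10 over days 4, 6 and 8 and ended no call of the genes described. Each table fitted alone gave 2, 302, 109, 52 and 0. Recovered reads gave 94 on day 2, 443 on day 6 and 569 on day 8. The 3 next settings were chosen after seeing the data. Recovered reads with the replicate block gave 140, 323, 738, 2930, 2477 and 7098. Without both scrambled libraries of day 8, 67 genes were called on day 0 and 1787 on day 6. Without the libraries numbered 2 of days 4, 6 and 8 there were 132, 86, 54 and 243 on days 0, 2, 4 and 8 and 1670 over days 4, 6 and 8. Leaving out 1 library gave 3 to 67, 7 to 61, 115 to 378, 93 to 2330 and 115 to 3766 genes on the 5 days and 2908 to 6507 over days 4, 6 and 8. For the time course it gave 1690 to 4601 and 1317 to 5257 genes in scrambled cells, and 1217 to 3292 and 1017 to 3473 with the Tcf7l2 hairpin, against 4039, 4317, 2842 and 2965 with all. For the difference between arms it gave 0 to 0 and 0 to 1, where limma on log2(RPM + 0.5) gave 3 and 3, and the omission of both scrambled libraries of day 8 gave 3 after day 2. Across days of an arm, same-numbered libraries had correlations of 0.0327 to 0.848, and 18 of 20 were over 0.1; a replicate block by number across days gave 4641 genes after day 2 with the Tcf7l2 hairpin and 5 for the difference between arms, and passed Fgf7 and Fgf10 in the steps named with their time courses. Differences near 0 changed sign. After day 2 in scrambled cells, Fgf7 was at -0.080 without both scrambled libraries of day 8 and Fgf10 at 0.10 without the libraries numbered 2; with the Tcf7l2 hairpin Fgf7 was at 0.30 without the latter. Leaving out 1 library, Fgf2 ranged from -0.022 to 0.10 between hairpins over days 4, 6 and 8, and to day 2 Fgf1 ranged from -1.34 to 0.31 in scrambled cells and from -1.20 to 1.59 with the Tcf7l2 hairpin. After day 2 in scrambled cells, Fgf7 ranged from -0.10 to 0.40 and Fgf10 from -0.41 to 0.061, and with the Tcf7l2 hairpin Fgfr3 ranged from -0.15 to 0.061 and Fgf7 from -0.19 to 0.079. The difference between arms to day 2 for Fgfr3 ranged from -0.30 to 0.14. The cause of these changes was not tested. Scaling by median-of-ratios moved 3 of 70 group levels by more than their SD. Few reads limit Fgf1 and Fgf21.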
